A study of Mus musculus with 6 samples.

Results

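Actb, the gene of the cytoplasmic actin beta-actin, was 1 of 15 genes that the array carried as a reference probe with 20 spots each, among 60915 non-control probes in all. Its probe, CUST_9_PI419532418, is the reference probe whose RefSeq accession in the scanner files belongs to Actb, and no other probe could be tied to this gene through the files. The gene was chosen by its spread between arrays of the same group in these same data, so that spread is described here and not tested. Hippocampal RNA came from C57BL/6 offspring on postnatal day 20, with 3 samples of vehicle offspring and 3 of nicotine offspring, each hybridised to its own Cy3-labelled Agilent array. Vehicle litters came from dams given 1% saccharin to drink. For the nicotine offspring the labels give 200 μg/ml nicotine, and the study's methods place it in drinking water that also held saccharin, from before mating until weaning. The methods describe offspring of both sexes, and neither the sex of each animal nor whether animals were pooled for an array is given in the sources used here, so the spread between arrays may hold differences between animals, between preparations or both. The tissue was bulk hippocampus, so a lower share of cells rich in Actb and less Actb mRNA per cell cannot be told apart.

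Beta-actin assembles into the filaments that give cells their shape and let them move. In neurons these filaments fill growth cones and dendritic spines, and in microglia they drive the surveying processes, while the Actb mRNA is itself carried into axons and dendrites. Because nearly every cell type expresses Actb, its mRNA is a common denominator in quantitative PCR and its protein a common loading control. A denominator of this kind is useful only as far as it stays level between samples. The study's own PCR and blots used GAPDH for this purpose.

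All 6 arrays detected Actb clearly. All 20 spots were well above background on every array, none was saturated, and the local background next to them had a median of 18 to 23.5 against mean signals of 4441 to 32072. The Feature Extraction signal of the Actb spots, before any scaling between arrays, averaged 14691, 32072 and 5032 in vehicle replicates 1, 2 and 3. It averaged 4441, 12266 and 15979 in nicotine replicates 1, 2 and 3. Whole arrays differed in brightness as well, with a 75th percentile over non-control probes of 147.6 and 149.97 on the arrays of slide 2 and of 291 to 345 on those of slide 1, and with 48.4% to 49.0% against 63.2% to 66.4% of spots well above background. Slide 2 held vehicle replicate 3 and nicotine replicate 1, and slide 1 held the other 4 arrays. All levels below are therefore log2 signals relative to the 75th percentile of their own array, averaged over the spots of the probe.

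On this scale Actb stood at 5.42, 6.78 and 5.09 in vehicle replicates 1, 2 and 3. It stood at 4.89, 5.15 and 5.57 in nicotine replicates 1, 2 and 3. Vehicle replicate 2 lay above every other array, and the values of the groups overlapped among the remaining arrays. The whole range was 3.72-fold over 6 arrays and 1.60-fold over the 5 arrays other than vehicle replicate 2. Vehicle replicate 2 was 1.56 above the mean of these 5 on the log2 scale, or 2.94-fold higher.

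**Figure D1:**
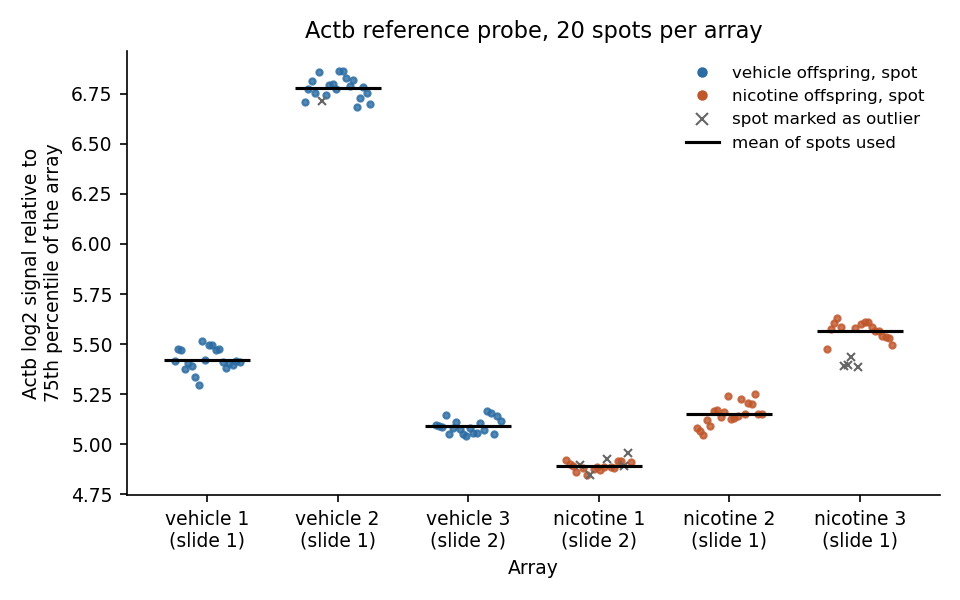
Log2 signal of the Actb reference probe relative to the 75th percentile of the array (y axis) for each of the 20 spots on the 6 arrays (x axis), with the slide in parentheses; crosses are spots marked as outliers and left out, and black lines are the means of the spots used. The spots of vehicle replicate 2 lie between 6.68 and 6.86, above every spot of the other arrays.

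Repeated spots measured Actb far more closely than repeated arrays did. The spots lay scattered over the array, from row 13 to row 347 and from column 21 to column 160, and their SD within an array ran from 0.02 to 0.06 on the log2 scale (15 to 20 spots used). The coefficient of variation of the spot signals was 1.46% to 3.87%. Spots marked as outliers numbered 1 in vehicle replicate 2, 5 in nicotine replicate 1, 4 in nicotine replicate 3 and 0 on the other arrays. The mean of each array had a standard error over spots of at most 0.013, while the SD between arrays was 0.90 (n = 3) in vehicle offspring and 0.34 (n = 3) in nicotine offspring. Spots share the labelled RNA of their array, so this precision covers the printing and the reading of the spots and not the sample.

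The pooled within-group SD of Actb, the SD between arrays around their own group mean, was 0.68 on the log2 scale. Vehicle replicate 2 held 56.2% of the sum of squares behind it, and the 3 vehicle arrays together 87.2%. Without vehicle replicate 2 the pooled SD fell to 0.31. On slide 1 alone, with 2 arrays per group and vehicle replicate 2 among them, it was 0.71. The slides also parted Actb: the slide 1 mean was above slide 2 by 1.01 in vehicle offspring and by 0.47 in nicotine offspring, and by 0.39 over both groups when vehicle replicate 2 was left out. Slide 2 holds 1 array per group, so the slide and the samples on it cannot be told apart.

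The other 14 reference genes give the background for this spread, and 13 of them passed the filter on dim probes, which asks for detection in all 3 arrays of 1 group or both. The remaining probe, that of Ldhal6b, a testis-type lactate dehydrogenase gene, was well above background on 4 arrays. It was not tested and had a pooled SD of 0.55. None of the 13 detected genes had a pooled SD as large as that of Actb. Theirs ran from 0.08 to 0.38 with a median of 0.21, and Actb was 3.25 times this median. Without vehicle replicate 2 Actb came down to 0.31 and the median of the 13 to 0.15, which brings them closer. In vehicle offspring alone their SD reached 0.52 at most, against 0.90 for Actb. In nicotine offspring the difference was small, at 0.3393 for the most variable of them, Rpl13a, against 0.3427 for Actb. Because Actb was chosen for its spread, this order is a description of these 6 arrays.

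The most variable of the detected reference genes after Actb was Tfrc, which encodes the transferrin receptor for iron uptake, with a pooled SD of 0.38. Tfrc was at 6.39, 5.65 and 6.65 in vehicle replicates 1, 2 and 3, and at 6.44, 6.16 and 6.33 in nicotine replicates 1, 2 and 3. Its most distant array was the same as for Actb, vehicle replicate 2, but there Tfrc was low by 0.74 relative to the mean of the other arrays. Next came Rpl13a, a protein of the large ribosomal subunit, at 0.36, and Hsp90ab1, a cytosolic chaperone, at 0.30. Both had their highest value in nicotine replicate 1, on slide 2.

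**Figure D2:**
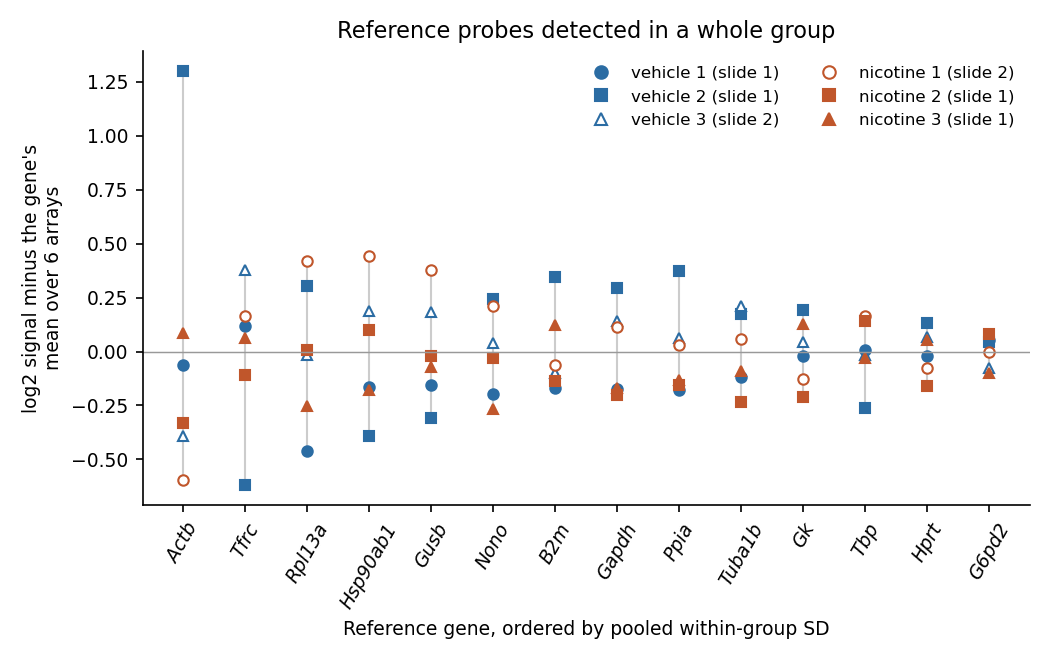
Log2 signal minus the gene's own mean over the 6 arrays (y axis) for Actb and the 13 other detected reference genes (x axis, ordered by pooled within-group SD); colour gives the group, marker shape the replicate number, and open markers slide 2. Vehicle replicate 2 stands far above the other arrays for Actb and below them for Tfrc, and at the right G6pd2 spans 1.14-fold.

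The reference probe of Gapdh, the glycolytic enzyme used by the study as its control, was tighter than that of Actb. It stood at 8.83, 9.30 and 9.15 in vehicle replicates 1, 2 and 3, and at 9.12, 8.80 and 8.83 in nicotine replicates 1, 2 and 3. Its pooled SD was 0.21 and its range over 6 arrays 1.41-fold, against 3.72-fold for Actb. The manufacturer's pair of mouse Gapdh control probes, described below, spread more than this reference probe, with pooled SDs of 0.30 and 0.31. Tuba1b, an alpha-tubulin and so the other cytoskeletal gene of the set, had a pooled SD of 0.16 and a range of 1.36-fold. Ppia, the cyclophilin A gene, and B2m, the light chain of MHC class I, had pooled SDs of 0.21 and 0.22. The smallest spreads were those of G6pd2 at 0.08, of Hprt, an enzyme of purine salvage, at 0.09, and of Tbp, the TATA-binding protein, at 0.13. Gk, glycerol kinase, followed at 0.15. Gusb, a lysosomal enzyme, and Nono, a nuclear RNA-binding protein, lay above B2m, at 0.25 and 0.23.

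**Figure D3:**
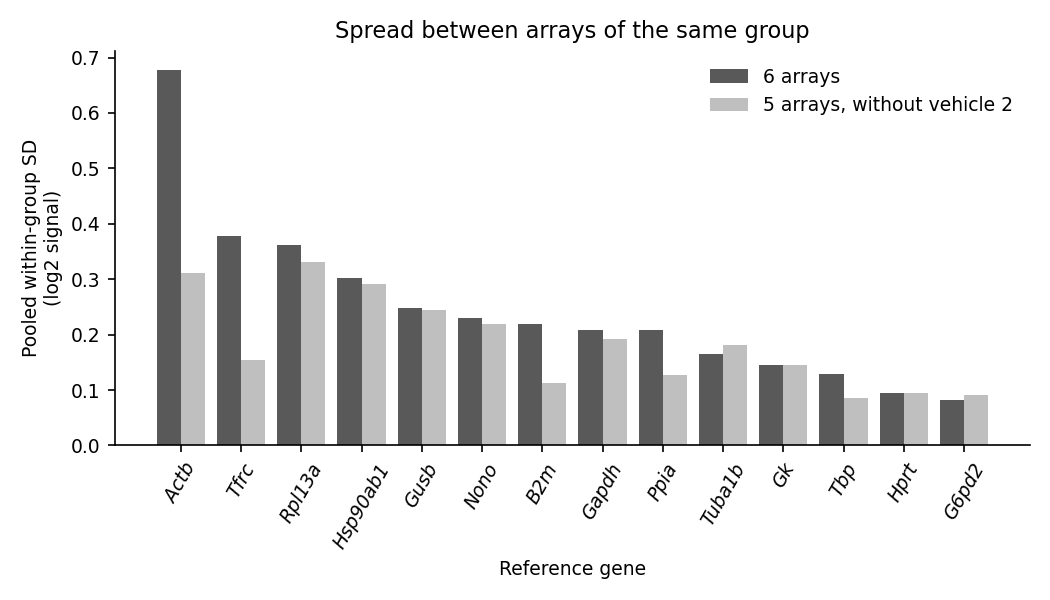
Pooled within-group SD of the log2 signal (y axis, from 0) for Actb and the 13 other detected reference genes (x axis), over 6 arrays (dark bars) and over 5 arrays without vehicle replicate 2 (light bars). The bar of Actb falls from 0.68 to 0.31, below the light bar of Rpl13a at 0.33.

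Which array was left out changed the place of Actb among the reference genes. Without vehicle replicate 2, 1 of the 13 detected genes, Rpl13a at 0.33, had a larger pooled SD than Actb at 0.31, and the 13 ran from 0.09 to 0.33. Over the same 5 arrays Actb spanned 1.60-fold and the 13 genes 1.14-fold to 1.84-fold. With any of the other 5 arrays left out in turn, and on slide 1 alone, no detected reference gene exceeded Actb. All of these sets keep vehicle replicate 2. On slide 1 alone their pooled SD ran from 0.08 to 0.40, against 0.71 for Actb.

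Vehicle replicate 2 was not unusual for Actb alone. Of the 13 other detected reference genes, 6 had their highest value on this array and 4 their lowest, and they lay between 0.74 below and 0.45 above the mean of the other arrays. The rise was largest for Ppia, at 0.45, followed by B2m at 0.41. Over all probes, 36.4% were 1.5-fold or more from the mean of the other arrays here. Treated the same way, the other arrays of slide 1 had 9.31% to 13.5%. The arrays of slide 2, vehicle replicate 3 and nicotine replicate 1, had 28.6% and 31.8%. The Actb deviation of 1.56 was matched or passed by 502 of 30197 probes measured on all arrays (1.66%), while 1.44% were lower by as much. Among the brightest 25% of probes, to which Actb belongs, 2.72% were higher by as much and 0.543% lower.

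Manufacturer's control probes moved on the same array. A pair of mouse Gapdh control probes, whose names end in 3 and 5, stood at 8.86 and 7.95 in vehicle replicate 2, above the other arrays, which reached 8.32 and 7.28 at most. A pair for mouse Pgk1, another glycolytic enzyme, moved apart, with the probe ending in 3 at 7.40 against 7.03 to 7.33 on the other arrays and the probe ending in 5 at -2.21 against -1.13 to -0.51. The bright corner spots, which mark the grid, were at 8.40 in vehicle replicate 2 and at 7.40 to 7.91 elsewhere. All of these control spots were well above background. Their part in the Actb value was not tested.

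Against all probes on the array, the spread of Actb was wide but not rare. Its pooled SD of 0.68 compares with a median of 0.36 over 30197 probes, and 13.8% of them had an SD at least as large. Within the brightest 25% the median was 0.32, and 11.3% were at least as variable as Actb. Without vehicle replicate 2 Actb, with an SD of 0.31, lay near the middle of all probes, whose median was 0.30 and of which 47.9% were at least as variable. Within the brightest 25% it was less central, with a median of 0.26 and 38.8% at least as variable.

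**Figure D4:**
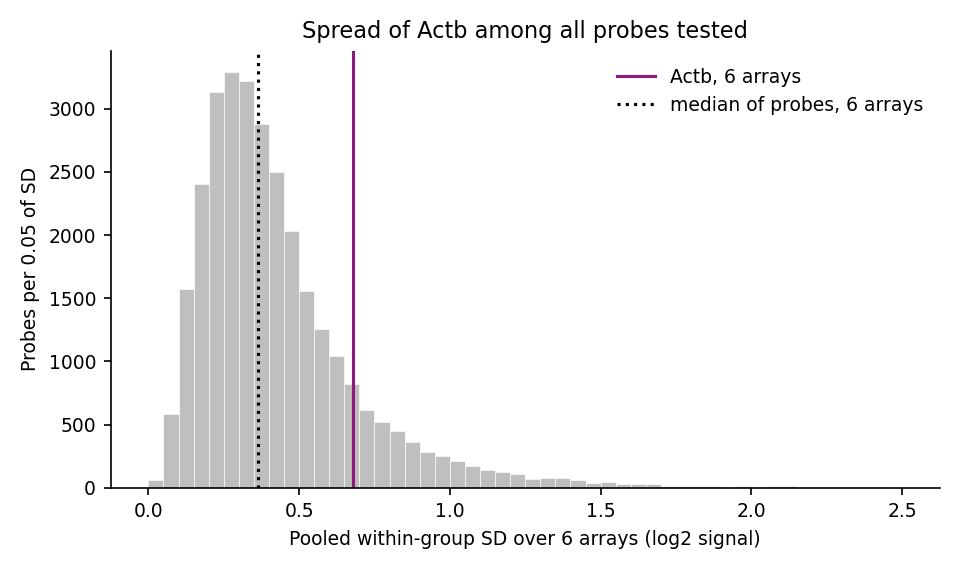
Number of probes (y axis) by pooled within-group SD of the log2 signal over 6 arrays (x axis, bins of 0.05) for the 30197 probes measured on all arrays, of which 11 with an SD of 2.5 or more are not drawn. The solid line marks Actb at 0.68 and the dotted line the median at 0.36.

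The comparison of the groups asked whether Actb itself differed between nicotine and vehicle offspring. The mean difference did not enter the choice of the gene, but the within-group spread did, and that spread sets the standard error, the p-values and the interval given here, so the choice favours a p that misses the threshold. Actb averaged 5.20 ± 0.34 (SD, n = 3) in nicotine offspring and 5.76 ± 0.90 (SD, n = 3) in vehicle offspring. The log2 difference, nicotine minus vehicle, was -0.56, or 1.48-fold lower in nicotine offspring. It did not pass the test (limma, standard error 0.45, unadjusted p = 0.251, Benjamini-Hochberg adjusted p over all probes 1.00 after rounding; exact permutation test, two-sided p = 0.5, where the smallest possible p is 0.1). Its 95% confidence interval from limma ran from -1.62 to 0.49, which reaches from a fall of 3.08-fold to a rise of 1.41-fold in nicotine offspring. Of the 30233 probes tested, 3.04% passed an unadjusted p under 0.05 together with a fold change of 1.5, the thresholds of the study's methods, and Actb was not among them. Of all tested, 8.20% had a mean difference at least as large as that of Actb. The 1.48-fold difference of Actb lay just under this fold change. An unadjusted p under 0.05 alone was reached by 3.39% of probes and an adjusted p under 0.05 by 0.0265%, again without Actb. With slide as a block Actb had an unadjusted p of 0.173 and an adjusted p of 0.588 in limma, where 4.91% of probes passed both of the methods' thresholds.

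The size of the Actb difference rested on vehicle replicate 2. Without it the log2 difference was -0.05. Within slide 1, which holds vehicle replicate 2, the difference was -0.74 (2 arrays against 2). Within slide 2 the difference was -0.20 (1 against 1, with no replicate check). Leaving out vehicle replicate 3 instead gave -0.90, with an unadjusted p of 0.0680 and an adjusted p of 0.627 in limma. The 13 other detected reference genes differed less, from -0.18 for Tuba1b to 0.24 for Hsp90ab1, with 8 lower and 5 higher in nicotine offspring. A wider spread also makes a larger mean difference likelier, so this order may follow in part from the choice of Actb. None of these 13 had an unadjusted p under 0.05 in limma, which 3.39% of all probes tested reached. The lowest of the 13 was 0.389 for Hsp90ab1.

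The reference genes whose values over the 6 arrays most resembled those of Actb were B2m, Ppia and Gk. Likeness was measured as the root mean square difference between the values after centring each gene on its own mean, which was 0.47 for B2m, 0.51 for Ppia and 0.52 for Gk. A gene that did not vary at all would lie 0.62 from Actb, so these 3 follow it only in part. B2m shared its highest value, in vehicle replicate 2 at 5.78, with Actb, and its second highest, in nicotine replicate 3 at 5.56. The least alike was Tfrc at 0.91. Without vehicle replicate 2 the closest were Gk at 0.19, B2m at 0.22 and Hprt at 0.22, where a gene with no variation would lie at 0.24.

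The processed log2 values deposited by the authors held the same pattern. There Actb stood at 13.43, 14.57 and 13.05 in vehicle replicates 1, 2 and 3, and at 12.87, 13.22 and 13.57 in nicotine replicates 1, 2 and 3. Vehicle replicate 2 was again the highest array. The columns of this table have medians of 5.27 and 75th percentiles of 7.94 each, and the method behind their normalization is not named beyond the software. The pooled SD was 0.61 on these values, 0.62 with quantile normalization of the scanner signals and 0.64 when each array was scaled to Gapdh. No detected reference gene exceeded Actb under either of the former. The processed values and quantile normalization also gave nearly the same number of probes past both thresholds, 902 and 903. They may therefore not be separate checks.

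To express the spread of Actb in the values of other genes, each array was also scaled to its own Actb value in place of the 75th percentile. This scaling carries the deviations and the mean difference of Actb over to every probe, so its values describe Actb once more and test nothing about the other genes. The pooled SD of the 13 detected reference genes, 0.08 to 0.38 before, became 0.48 to 1.04. Since Actb was chosen for a spread wider than theirs, a rise of this kind follows largely from the choice. Over all probes the median pooled SD rose from 0.36 to 0.79, and 85.1% of probes were more variable than before. The mean difference of every probe moved up by 0.56, the size of the Actb difference with its sign turned. By this arithmetic the differences of the 13 reference genes, -0.18 to 0.24 before, became 0.39 to 0.81. None of these 13 passed an unadjusted p under 0.05 on either scale in limma. Of all probes tested, 3.39% did so on the 75th percentile scale and 1.28% on the Actb scale, so none among 13 lies near these shares.

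Gapdh is an example. Relative to the 75th percentile it was lower in nicotine offspring by a log2 difference of -0.17 (standard error 0.23, unadjusted p = 0.475 in limma). Relative to Actb its log2 difference was 0.39 (standard error 0.70, unadjusted p = 0.580 in limma). Gapdh minus Actb was 3.41, 2.52 and 4.05 in vehicle replicates 1, 2 and 3, and 4.23, 3.65 and 3.27 in nicotine replicates 1, 2 and 3. The low value in vehicle replicate 2 stands apart, although Gapdh itself was at its highest there. These differences compare arrays, and not the amounts of the 2 transcripts, since the brightness of different probes is not on a common scale.

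**Figure D5:**
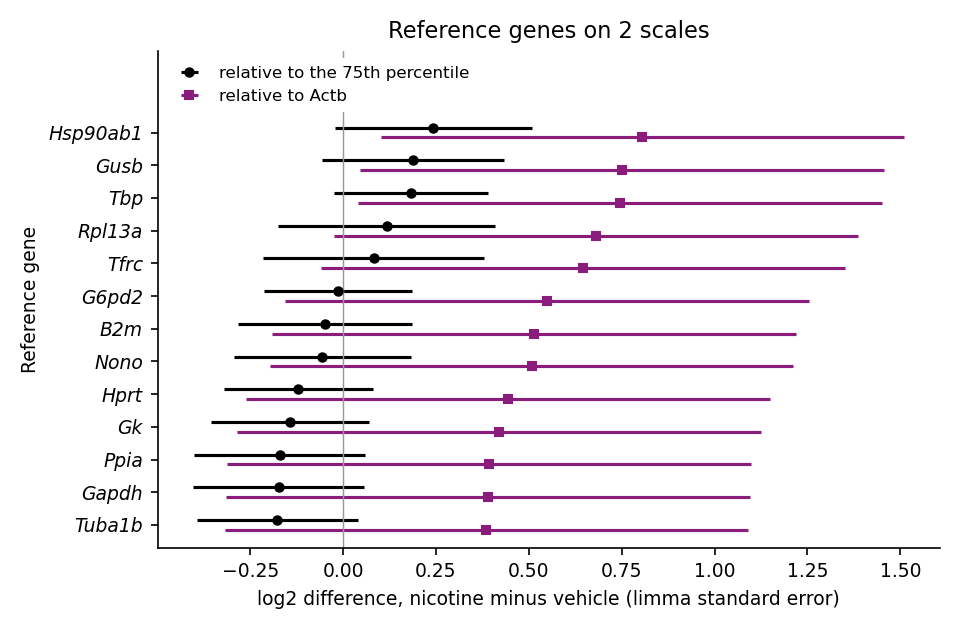
Log2 difference, nicotine minus vehicle (x axis), for the 13 detected reference genes other than Actb (y axis), with each array scaled to its 75th percentile (black circles) or to its Actb value (purple squares); bars are standard errors from limma. Each square lies 0.56 to the right of its circle, by construction, at 0.39 to 0.81.

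The counts of probes past the thresholds carry the same shift. Relative to the 75th percentile 919 of 30233 probes passed both thresholds, 478 higher and 441 lower in nicotine offspring, so that 52.0% were higher. This split rested on single arrays, with 422 higher and 825 lower without vehicle replicate 2 (33.8% higher), 257 and 459 without nicotine replicate 1 (35.9%), and 1269 and 771 without vehicle replicate 3 (62.2%), and the count itself fell to 431 without nicotine replicate 2. Relative to Actb 387 of 30232 probes passed (1.28%), 362 higher (1.20%) and 25 lower (0.0827%), so that 93.5% of those that passed were higher, a direction set by the shift common to all probes, and 0.0595% had an adjusted p under 0.05. None of the 13 reference genes was among the probes that passed. Without vehicle replicate 2 the split was 127 higher and 310 lower (29.1% higher), turned as on the 75th percentile scale. The count on the Actb scale rested on single arrays too, at 4692 without vehicle replicate 3, 83 without nicotine replicate 2 and 98 without nicotine replicate 1. Scaled to Gapdh 1164 probes passed, 984 of them higher, and scaled to the mean of all detected reference probes 954 passed, 588 of them higher. On the Actb scale limma estimated infinite prior degrees of freedom and so gave every probe 1 common variance, and with it a standard error of 0.70 for each of these 13 genes, although their own pooled SDs on that scale differed from 0.48 for B2m to 1.04 for Tfrc. The p-values and the 387 probes on this scale rest on that common variance. On the 75th percentile scale the prior degrees of freedom were 3.36.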

How the data were processed

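Per the file headers, the authors extracted each 1-colour array with Agilent Feature Extraction 11.0.1.1 and deposited the intensity of each spot, background-subtracted within the array and not normalized between arrays, with spot flags. The authors also deposited processed log2 values, normalized with GeneSpring GX by a method not named in the sources used here. Control spots and 15 negative control probes were removed. On each array 21 to 46 spots with an outlier mark were left out, and log2 signals were averaged over the spots of a probe. The log2 of the array's 75th percentile over non-control spots, those with an outlier mark included, was then subtracted. Probes detected above background in the 3 arrays of 1 group or both were tested (30233 of 60915) with limma 3.58.1 in R 4.3.3 without a block, beside an exact permutation test for Actb. Spreads over probes, and deviations from the mean of the other arrays, used the 30197 measured on all arrays. The code was tested on simulated data.

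All 15 reference accessions, matched without their version, took their symbols from RefSeq genes of GRCm38.p6, and 0 other probes could be named, so markers of hippocampal cell types and other actin genes are not analysed here. The genes named are Actb and the reference genes, and the manufacturer's Gapdh and Pgk1 control probes were added after their values were seen. The genes, lists and alternatives were chosen with earlier results of these data known. With 3 arrays per group, and spread that may be technical, p-values measure only the spread between these arrays. Alternatives were other normalizations, normexp with an offset of 50, the processed values, slide or replicate number as a block, other filters and spot summaries, the methods' t-test for counts of probes, and each array left out.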

Additional observations from a re-analysis of the deposited data

How the results depend on the processing

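The Actb difference was negative and had an adjusted p above 0.05 in each of 19 alternatives, from -0.90 without vehicle replicate 3 to -0.05 without vehicle replicate 2, with adjusted p in limma from 0.588 to 1.00 after rounding. The pooled SD of 0.68 became 1.17 without normalization between arrays, where the brightness of the slides enters it, and ran from 0.31 to 0.78 with single arrays left out, the low being without vehicle replicate 2. The number of detected reference genes more variable than Actb ran from 0 to 1 with single arrays left out. The cause of the other changes was not tested.

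The 919 probes past both thresholds became 154 without normalization, 459 with normexp, 1484 with slide as a block, 610 with the methods' t-test (0 with a Benjamini-Hochberg adjusted p under 0.05, 1309 with an unadjusted one) and 1428 on slide 1 alone, and ran from 431 (without nicotine replicate 2) to 2040 (without vehicle replicate 3). Over probes well above background on all 6 arrays 703 passed both, and limma gave 0 with an adjusted p under 0.05, where the set tested above had 8, and 813 with an unadjusted one. The 387 on the Actb scale became 59 with normexp, 1573 with slide as a block, 714 on slide 1 alone, 248 for probes well above background on all 6 arrays (0 at an adjusted p under 0.05 in limma, 248 at an unadjusted one), 154 with the methods' t-test (0 adjusted, 169 unadjusted), 1164 scaled to Gapdh and 954 scaled to the mean of all detected reference probes. It ran from 83 (without nicotine replicate 2) to 4692 (without vehicle replicate 3), with 98 without nicotine replicate 1.

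Replicate numbers are shared between groups. Deviations of same-numbered arrays correlated across probes at -0.64, 0.45 and -0.69 for replicate numbers 1, 2 and 3. Only the arrays numbered 2 share a slide, so these values cannot show whether the numbers pair the arrays. A replicate block left 531 probes that passed on the 75th percentile scale (235 higher, 296 lower) and 187 on the Actb scale, and the Actb difference of -0.56 had an adjusted p of 1.00 after rounding. Slide 1 alone for differences and counts, and scaling of Actb to other reference genes, were chosen after seeing the data, and normexp was run on the median signal. Signal limits these values through slide 2, whose arrays had under 50% of spots well above background, although no Actb spot was dim.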
